A study of Saccharomyces cerevisiae with 6 samples.

Results

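The genes described here are 33 genes of ergosterol synthesis and its control in Saccharomyces cerevisiae, chosen by name from the pathway, with earlier results of these data known. All 33 were found among the 5449 yeast genes measured, each read by a single probe set. They comprise 8 genes of the mevalonate pathway, 4 that carry its product to lanosterol, 11 that turn lanosterol into ergosterol, 3 electron-transfer or heme-binding partners, 3 transcription factors, 2 sterol acyltransferases and 2 oxysterol-binding proteins. They were measured on 6 single-colour Affymetrix arrays. In the zymolyase group, 3 samples were digested for 20 min at 25 °C with zymolyase, an enzyme preparation that breaks down wall glucan, and RNA was then isolated with the MagExtractor kit. The control group comprised 3 samples extracted with the FastRNA Pro Red kit, for which the labels name no digestion. All samples are labelled BY4743, a diploid laboratory strain listed as MATa/α his3Δ1 leu2Δ0 met15Δ0 ura3Δ0 lys2Δ0, and all were grown for 2 days at 25 °C in YPD, a rich medium, with 0.01% of the detergent SDS. Enzyme and kit changed together, so that each difference below belongs to the combination. The labels do not state that the 3 samples per group are separate cultures, and p-values therefore reflect the spread among the arrays at hand, which may be technical.

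Ergosterol is the main sterol of fungal membranes and takes the place that cholesterol has in animal cells. Its synthesis starts from acetyl-CoA, passes through mevalonate, farnesyl pyrophosphate and squalene, closes the ring system to lanosterol and then trims and desaturates it, with several steps that need oxygen, heme and electrons from NADPH. Yeast adjusts the pathway through the transcription factors Upc2 and Ecm22, which bind sterol regulatory elements in promoters of ERG genes, and through degradation of HMG-CoA reductase. Surplus sterol is stored as esters.

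The arrays held several features that bear on any gene. In each group the labelled strain's deleted genes LEU2 and URA3 were bright: the 3 deletion markers HIS3, LEU2 and URA3 had signals of 370.9 to 2664.8, against a background of at most 10.9, the 95th percentile of probe sets for a second yeast species on the same array. The summed signal of those 3 genes was 3426.4 to 3721.3 in zymolyase arrays and 3401.7 to 4016.1 in control arrays. That sum joins opposite changes. HIS3 and LEU2 were lower in zymolyase arrays (log2 change -0.98 and -0.74, limma adjusted p = 0.0057 and 0.0187). URA3 was higher (0.44, limma adjusted p = 0.021). The 4 alpha-specific mating genes were also bright (summed signal 9813.4 to 16822.4 in zymolyase and 12320 to 15105.3 in control arrays), and the 7 a-specific genes dim (243.9 to 402.4 and 206.6 to 255.0). The 8 haploid-specific genes were bright too, with signals of 282 to 2586.6 (summed 7643.3 to 9788.8 and 6916.2 to 7827.3). Of these, HO, FUS3, STE5 and GPA1 were higher in zymolyase arrays (log2 change 1.93, 1.21, 0.79 and 0.68) and RME1 was lower (-1.03), each at a limma adjusted p under 0.05. The others did not pass. Among the a-specific genes only MFA1 passed (1.66, limma adjusted p = 0.0035), and among the alpha-specific genes none did. Low signals of all these lists had been expected of the labelled a/α diploid, and the bright lists did not match that. None of these genes was at 0, and the samples are called only as labelled. The signal ratio of 3′ over 5′ probe sets of 8 control genes was 4.57 to 7.21 in zymolyase arrays and 1.49 to 1.99 in control arrays, a log2 difference of 1.74 (exact two-sided permutation p = 0.1, the smallest that 3 against 3 allows). Its part in the results below was not tested directly. Across all genes the log2 change rose with coding length, and for that reason results are also given with the length trend removed. The arrays numbered 1 stood apart from those numbered 2 and 3 for some of the genes, and main counts are also given without them. In such bulk samples, fewer cells holding a transcript and less of it per cell cannot be told apart.

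A larger share of the sterol genes than of all genes was lower in the zymolyase samples. Of the 33 genes, 15 fell, 4 rose and 14 did not pass (limma, adjusted p under 0.05 over all 5449 genes, of which 42.5% passed in either direction). The 15 that fell were 45.5% of the genes, beside 20.0% of all genes, and the 4 that rose were 12.1%, beside 22.5% of all genes. At least 2-fold lower were 8 of them, or 24.2%, beside 8.55% of all genes, and none was at least 2-fold higher, beside 9.82%. The values of the groups did not overlap for 24 of the 33 genes, or 72.7%, beside 52.9% of all genes. The median log2 change was -0.20, against 0.04 over all genes. With each array centred on its median, which lowers every change by 0.16, the counts were 15 lower and 3 higher with a median of -0.36, and over all genes the split was 1463 lower and 951 higher in place of 1092 and 1224. With both arrays numbered 1 left out, 15 fell and 5 rose, and over all 5449 genes 1543 fell and 1779 rose, more than in the main fit. With the replicate block, which takes same-numbered arrays as pairs, 15 fell and 6 rose, beside 27.3% and 31.2% of all genes. With the length trend removed, 14 fell and 1 rose, beside 19.9% and 18.0% of all genes. Quantile normalization gave 8 that rose, beside 1156 of all genes, and the fit without control array 2 gave 2, beside 858 of all genes.

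**Figure D1:**
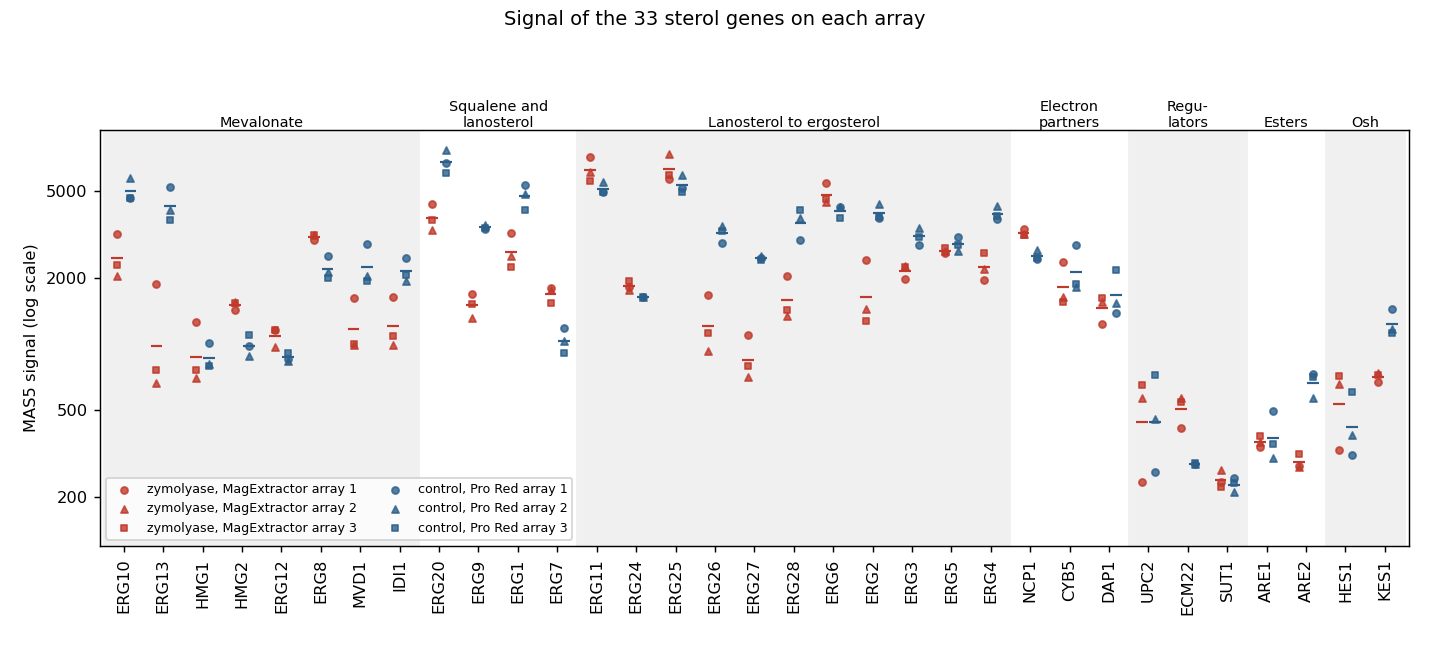
MAS5 signal of the 33 sterol genes on a log scale, by role from left to right, with zymolyase arrays in red and control arrays in blue, and a symbol for each array number. Short lines are geometric means of 3 arrays. ERG13, ERG26, ERG27, ERG9 and ARE2 show separate groups, whereas HMG1, UPC2, SUT1 and ARE1 overlap.

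In the mevalonate pathway, 4 of 8 genes fell and 2 rose, beside 20.0% and 22.5% of all genes. The ones that fell stood at both ends of it. ERG13 (YML126C), for the HMG-CoA synthase that joins acetyl-CoA to acetoacetyl-CoA, had signals of 1891.5, 666.4 and 761.5 in zymolyase arrays, against 5208.5, 4086.2 and 3696.4 in control arrays. Every zymolyase value was below every control value, and zymolyase array 1 lay nearest to the controls. ERG13 fell 4.34-fold (log2 -2.12, SE 0.37, adjusted p = 0.00376), which placed it at percentile 0.5 of the changes of all genes. It was the largest fall of the 33. ERG10 (YPL028W), for the acetoacetyl-CoA thiolase of the step before, had 3171.9, 2055.6 and 2296.8 in zymolyase and 4669.1, 5709.7 and 4633.4 in control arrays, and fell 2.02-fold (-1.01, SE 0.19).

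The reductase step that follows, the main control point of the pathway, is served by a pair of isozymes. HMG1 (YML075C) had signals of 1265.4, 700.3 and 763.6 in zymolyase and 1008.9, 812.6 and 797.4 in control arrays. The groups overlapped, with array 1 highest in each, and the log2 change was 0.02 (SE 0.24, adjusted p = 0.964). HMG2 (YLR450W), the isozyme known for its regulated degradation, had 1429.6, 1556.4 and 1542.5 in zymolyase and 977.3, 879.4 and 1100.5 in control arrays. Its groups did not overlap, and it rose 1.54-fold (0.62, SE 0.14, adjusted p = 0.0104). Both reductase genes are long, with 3165 and 3138 coding bases. With the length trend removed HMG2 changed by 0.11 (adjusted p = 0.518), and without control array 2 its adjusted p was 0.0506. Over all alternatives the adjusted p spanned 0.000758 to 0.518.

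The kinases that phosphorylate mevalonate did not follow the synthase. ERG8 (YMR220W), the phosphomevalonate kinase, had 2975.3, 3151.2 and 3148.2 in zymolyase and 2539.8, 2132.0 and 2007.5 in control arrays, and rose 1.40-fold (0.48, SE 0.14, adjusted p = 0.0262). Of the 4 rises, that call was lost under the most alternatives, 6 of 16 (adjusted p from 0.0029, without both arrays 1, to 0.116). Among them were leaving out control array 2 (0.0819) or 3 (0.0959) or zymolyase array 2 (0.0759) or 3 (0.0889), and median centring (0.116). It was also the only 1 of the 4 to pass with the length trend removed (0.46, adjusted p = 0.0325). ERG12 (YMR208W), the mevalonate kinase, had 1159.8, 970.1 and 1155.3 in zymolyase and 857.5, 841.1 and 913.7 in control arrays. Its groups did not overlap, and its change of 0.33 (SE 0.14, adjusted p = 0.0983) did not pass.

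The next 2 enzymes form and isomerize isopentenyl pyrophosphate, the building block of all isoprenoids. MVD1 (YNR043W), the mevalonate pyrophosphate decarboxylase, had 1630.5, 996.3 and 1000 in zymolyase and 2861.6, 2040.5 and 1942.0 in control arrays, a fall of 1.91-fold (-0.93, SE 0.24, adjusted p = 0.0166). IDI1 (YPL117C), the isomerase, fell 1.78-fold (-0.83, SE 0.22, adjusted p = 0.0165), with signals of 1647.0, 991.6 and 1085.2 in zymolyase and 2479.7, 1937.5 and 2077.3 in control arrays. For both, array 1 was the highest of its group in each group. Without zymolyase array 2 the adjusted p was 0.0667 for MVD1 and 0.0626 for IDI1, and without zymolyase array 3 it was 0.0624 and 0.0622. Over the alternatives it ranged from 6.2e-06 to 0.0667 for MVD1 and from 1.28e-05 to 0.0626 for IDI1. The lowest value of each came from the fit without both arrays numbered 1, added after seeing the data.

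From farnesyl pyrophosphate to lanosterol, 3 of 4 genes fell and the last rose, beside 20.0% and 22.5% of all genes. ERG9 (YHR190W), the squalene synthase that commits farnesyl pyrophosphate to sterols, had signals of 1687.4, 1323.6 and 1528.1 in zymolyase arrays, against 3360.5, 3505.9 and 3403.4 in control arrays. The control values lay within a narrow band and the groups were far apart, and ERG9 fell 2.27-fold (-1.18, SE 0.14, adjusted p = 0.0011). ERG20 (YJL167W), the farnesyl pyrophosphate synthase, had 4348.1, 3314.8 and 3708 in zymolyase and 6706.9, 7675.8 and 6073.6 in control arrays and fell 1.80-fold (-0.85, SE 0.16). ERG1 (YGR175C), the squalene epoxidase that terbinafine inhibits, had 3221.1, 2527.9 and 2247 in zymolyase and 5313.6, 4836.9 and 4109.2 in control arrays and fell 1.79-fold (-0.84, SE 0.18). These 3 genes kept their calls under all 16 alternatives.

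ERG7 (YHR072W), the lanosterol synthase that closes the rings, went against its neighbours. It had 1802.7, 1767.6 and 1544.3 in zymolyase and 1183.9, 1039.3 and 910.4 in control arrays, with no overlap, and rose 1.64-fold (0.71, SE 0.15, adjusted p = 0.00805). With 2196 coding bases it is the longest of the 4 genes. With the length trend removed its change was 0.38 and the adjusted p 0.0845, the highest across the alternatives. The lowest, 0.000157, came without both arrays numbered 1.

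**Figure D2:**
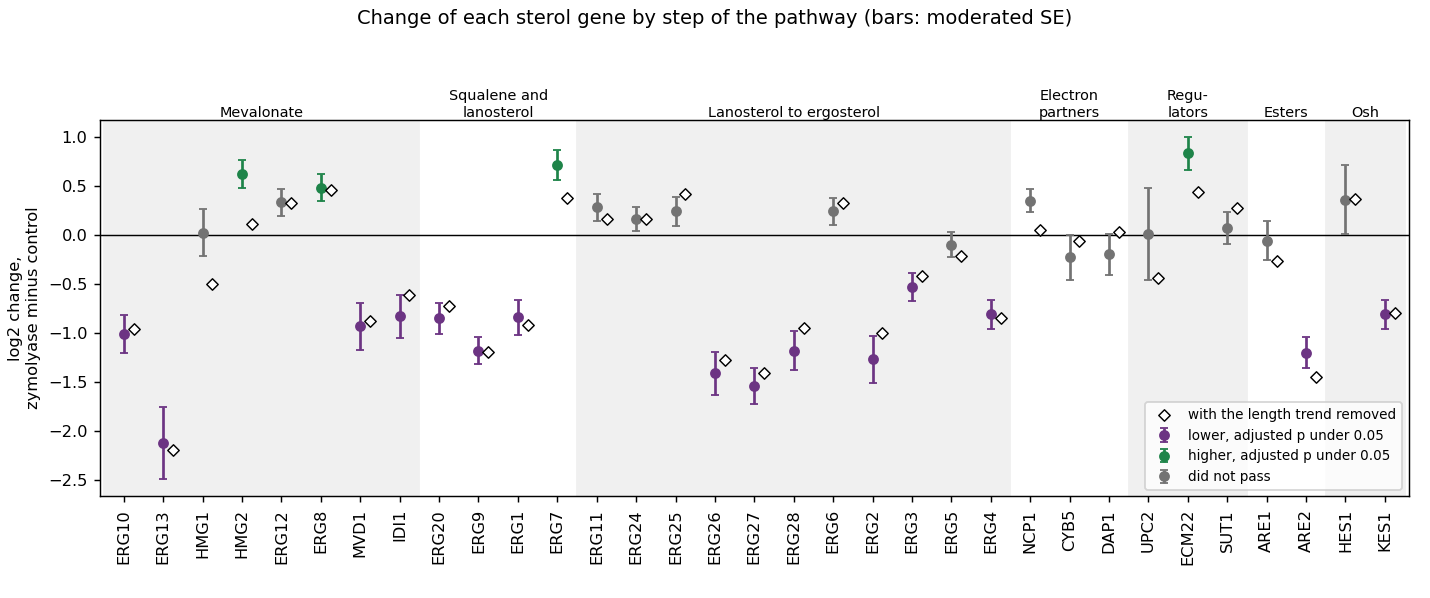
Log2 change (zymolyase minus control) of each sterol gene in pathway order, with the moderated standard error of the limma fit as bars and the change after removal of the length trend as open diamonds. Purple marks the 15 genes that fell and green the 4 that rose. The falls stand on both sides of genes that did not pass, such as ERG11, ERG24 and ERG25 between ERG1 and ERG26.

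Between lanosterol and ergosterol, 6 of 11 genes fell and 5 did not pass, beside 20.0% of all genes that fell. None rose (also none at an unadjusted p under 0.05, and none with the replicate block other than ERG25), beside 22.5% of all genes. The first 3 genes of this stretch had small positive changes. ERG11 (YHR007C), the cytochrome P450 that removes a methyl group from lanosterol and that azole drugs inhibit, had signals of 7158.3, 6084.6 and 5533.6 in zymolyase and 4929.4, 5521.4 and 4950.3 in control arrays, a change of 0.28 (SE 0.14, adjusted p = 0.146). ERG24 (YNL280C), the reductase that acts on its product and a target of morpholine drugs, had 1819.8, 1773.0 and 1934.9 in zymolyase and 1640.9, 1648.7 and 1644.5 in control arrays, a change of 0.16 (SE 0.12, adjusted p = 0.323). In neither gene did the groups overlap, and neither passed. ERG11 passed after quantile normalization (0.38, adjusted p = 0.0218, in a range up to 0.618).

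The complex that removes the methyl groups at C-4 parted into genes that fell and one that did not pass. ERG25 (YGR060W), the methyl oxidase, had 5686.3, 7366.7 and 5935.1 in zymolyase and 5178.0, 5924.3 and 4947.8 in control arrays. Its groups overlapped and its change was 0.24 (SE 0.15). The adjusted p was 0.236, and 0.0464 in the paired fit with the replicate block. ERG26 (YGL001C), the decarboxylating dehydrogenase that acts next, had 1676.2, 931.9 and 1122 in zymolyase and 2900.4, 3450.1 and 3283.3 in control arrays, a fall of 2.66-fold (-1.41, SE 0.22, adjusted p = 0.00254). ERG27 (YLR100W), the keto reductase, fell 2.91-fold (-1.54, SE 0.18, adjusted p = 0.0011), with 1100.7, 705.2 and 792.3 in zymolyase and 2479.1, 2516.1 and 2430.2 in control arrays. ERG28 (YER044C), the scaffold that holds the enzymes together, had 2055.6, 1345.5 and 1438.5 in zymolyase and 2979.0, 3761.6 and 4096.5 in control arrays and fell 2.26-fold (-1.18, SE 0.20). In all 3 genes the groups were separate and zymolyase array 1 lay nearest to the controls. Their coding lengths were 1050, 1044 and 447 bases, and with the length trend removed they changed by -1.28, -1.41 and -0.95, each past the threshold.

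The last 5 enzymes add a methyl group to the side chain, shift and add double bonds, and reduce the side chain. ERG6 (YML008C), the methyltransferase, had a change of 0.24 (SE 0.14, adjusted p = 0.196), with 5457.1, 4440.0 and 4583.1 in zymolyase and 4222.1, 4240.0 and 3775.3 in control arrays. ERG2 (YMR202W), the isomerase, had 2425.0, 1446.2 and 1271.8 in zymolyase and 3757.3, 4380.9 and 3802.5 in control arrays and fell 2.41-fold (-1.27, SE 0.24). ERG4 (YGL012W), the reductase of the final step, fell 1.75-fold (-0.81, SE 0.15), with 1965.7, 2214.9 and 2618.7 in zymolyase and 3719.7, 4282.2 and 3857.4 in control arrays. The groups of ERG2 and ERG4 were separate, and both genes kept their calls under all 16 alternatives.

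Of the desaturases, ERG3 fell and ERG5 did not pass. ERG3 (YLR056W), whose loss is known to confer azole resistance, had 1977.5, 2271.8 and 2241.2 in zymolyase and 2847.1, 3404.5 and 3101 in control arrays. It fell 1.44-fold (-0.53, SE 0.14, adjusted p = 0.0169), the smallest of the 15 falls. The adjusted p was 0.0641 with the length trend removed, 0.0503 without zymolyase array 3, and 0.0678 and 0.0541 without control arrays 2 and 3, and it spanned 0.00449 to 0.0678 over the alternatives. ERG5 (YMR015C), the other cytochrome P450 of the pathway, had 2604.8, 2676.0 and 2743.8 in zymolyase and 3087.8, 2663.3 and 2843.8 in control arrays, which overlapped, and a change of -0.10 (SE 0.13, adjusted p = 0.568).

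None of the 3 redox and heme-binding partners passed (limma; NCP1 had an unadjusted p of 0.0226, and it alone passed with the replicate block). NCP1 (YHR042W), the reductase that feeds electrons from NADPH to the P450 enzymes, had 3365.0, 3168.3 and 3160.7 in zymolyase and 2453.4, 2699.2 and 2466.7 in control arrays. The groups did not overlap, and the change of 0.35 (SE 0.12) had an adjusted p of 0.0524, just outside the threshold, and of 0.0245 with the replicate block. With the length trend removed it was 0.05. CYB5 (YNL111C), for cytochrome b5, an alternative electron donor, and DAP1 (YPL170W), a heme-binding protein that acts on Erg11, had changes of -0.23 (SE 0.23) and -0.20 (SE 0.21). CYB5 had 2369.2, 1643.7 and 1561.8 in zymolyase and 2850.1, 1832.8 and 1876.5 in control arrays, and DAP1 had 1240.8, 1551.5 and 1618.9 in zymolyase and 1387.1, 1544.2 and 2191.5 in control arrays. The groups of both genes overlapped.

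Of the 3 transcription factors of the pathway, 1 rose and 2 did not pass. ECM22 (YLR228C) had signals of 415.9, 570.7 and 545.1 in zymolyase and 283.7, 284.6 and 288.2 in control arrays. The control values were nearly equal and all zymolyase values lay above them, and ECM22 rose 1.77-fold (0.83, SE 0.17, adjusted p = 0.00649), the largest rise of the 33. It has 2445 coding bases, and with the length trend removed its change was 0.44 (adjusted p = 0.0723, the highest over the alternatives). The lowest adjusted p of ECM22, 3.19e-05, came without both arrays numbered 1. UPC2 (YDR213W), its paralogue, had 234.4, 568.7 and 649.9 in zymolyase and 260.1, 456.5 and 720.7 in control arrays. Within each group its values spread more than 2-fold and the groups overlapped over nearly their whole range, and the change was 0.01 (SE 0.47, adjusted p = 0.994). SUT1 (YGL162W), a factor known to promote sterol uptake, was at 222.7 to 266.4 in zymolyase and 211.1 to 245.6 in control arrays, with a change of 0.07 (SE 0.16, adjusted p = 0.739, and -0.09 under median centring).

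Among the genes that store and bind sterol, 1 of each pair fell. ARE2 (YNR019W), the acyltransferase that makes most sterol ester in aerobic cells, had 278.8, 274.6 and 314.4 in zymolyase and 729.2, 570.5 and 706.4 in control arrays. It fell 2.30-fold (-1.20, SE 0.16, adjusted p = 0.00153). With 1929 coding bases it is the longest of the 15 genes that fell, and its change was -1.45 with the length trend removed. ARE1 (YCR048W), the second acyltransferase, had 340.4, 359.6 and 380.4 in zymolyase and 494.0, 303.5 and 349.8 in control arrays, which overlapped, with a change of -0.06 (SE 0.20).

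KES1 (YPL145C), an oxysterol-binding protein known to counter Golgi secretion, had 672.2, 736.6 and 721.7 in zymolyase and 1448.6, 1178.0 and 1125.6 in control arrays, and fell 1.75-fold (-0.81, SE 0.15, adjusted p = 0.00471). HES1 (YOR237W), its paralogue of the same length, had 327.9, 659.4 and 713.7 in zymolyase and 312.8, 385.9 and 605.6 in control arrays. Its groups overlapped, with array 1 lowest in each, and the change was 0.36 (SE 0.35, adjusted p = 0.44). With both arrays numbered 1 left out HES1 changed by 0.50 (adjusted p = 0.0209, the lowest of a range up to 0.787).

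Whether the genes of such pairs changed unequally was tested within each array, for 4 pairs. The log2 signal of ARE1 minus that of ARE2 was 0.29, 0.39 and 0.27 in zymolyase arrays and -0.56, -0.91 and -1.01 in control arrays, with no overlap. The difference was 1.15 (SE 0.14, exact permutation p = 0.1, two-sided, which no split can undercut, and 0.267 adjusted over the 4 pairs). For HES1 minus KES1 the means were -0.40 ± 0.55 in zymolyase and -1.57 ± 0.66 in control arrays (SD, n = 3 each), a difference of 1.17 with overlapping groups (exact permutation p = 0.2). HMG1 minus HMG2 averaged -0.78 ± 0.53 in zymolyase and -0.18 ± 0.26 in control arrays, a difference of -0.60 (exact permutation p = 0.2), and UPC2 minus ECM22 averaged -0.19 ± 0.56 and 0.63 ± 0.73, a difference of -0.82 (exact permutation p = 0.3). This exact test on 3 arrays against 3 cannot go below 0.1. Taken within same-numbered arrays (zymolyase minus control), the differences kept 1 sign in each of the 4 comparisons. Of all genes taken singly, 76.3% kept 1 sign in the 3 pairs of arrays. The differences were 0.85, 1.30 and 1.29 for ARE1 minus ARE2 (SE 0.15) and 1.18, 1.45 and 0.88 for HES1 minus KES1 (SE 0.17). They were -0.22, -1.04 and -0.55 for HMG1 minus HMG2 (SE 0.24), and -0.70, -0.69 and -1.07 for UPC2 minus ECM22 (SE 0.12). These standard errors were smaller than the unpaired ones of 0.50, 0.34 and 0.53 for HES1 minus KES1, HMG1 minus HMG2 and UPC2 minus ECM22. For ARE1 minus ARE2 the paired SE of 0.15 was not smaller than the unpaired one of 0.14. In each comparison the exact sign-flip permutation p was 0.25, the smallest that 3 pairs allow. Probe sets have no common scale, so these differences say nothing of which gene of a pair is more abundant.

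**Figure D3:**
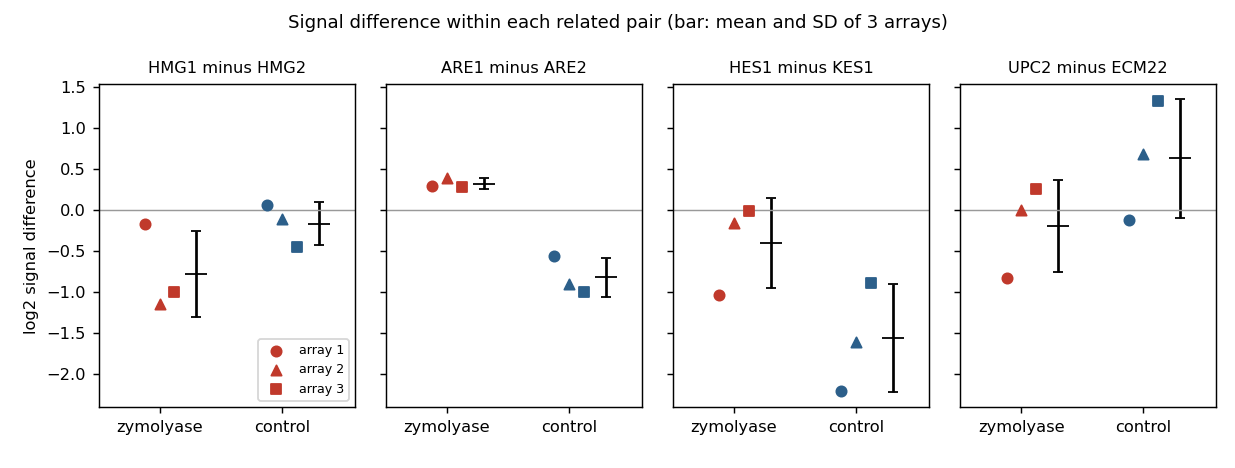
Log2 signal difference within 4 pairs of related sterol genes on each array, zymolyase at the left and control at the right of each panel, with symbols for array numbers and bars for the mean and SD of 3 arrays. ARE1 minus ARE2 parts the groups, at 0.27 to 0.39 in zymolyase and -1.01 to -0.56 in control arrays, and the other pairs overlap.

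Coding length and change went together among the sterol genes as they did among all genes. Spearman's rho between them was 0.43 over the 33 genes and 0.34 over all 5449, given as a description, since genes of a sample share its RNA and are not replicates. The 15 genes that fell had a median length of 1191 bases (447 to 1929), and the 4 that rose of 2320.5 bases (1356 to 3138), against 1236 for all genes. The median change of the 15 was -0.95 without the trend and -1.01 with it, and that of the 4 was 0.41 without it and 0.67 with it. Of the 4 rises only that of ERG8 passed without the trend (0.46, adjusted p = 0.0325), and of the 15 falls only that of ERG3 did not.

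**Figure D4:**
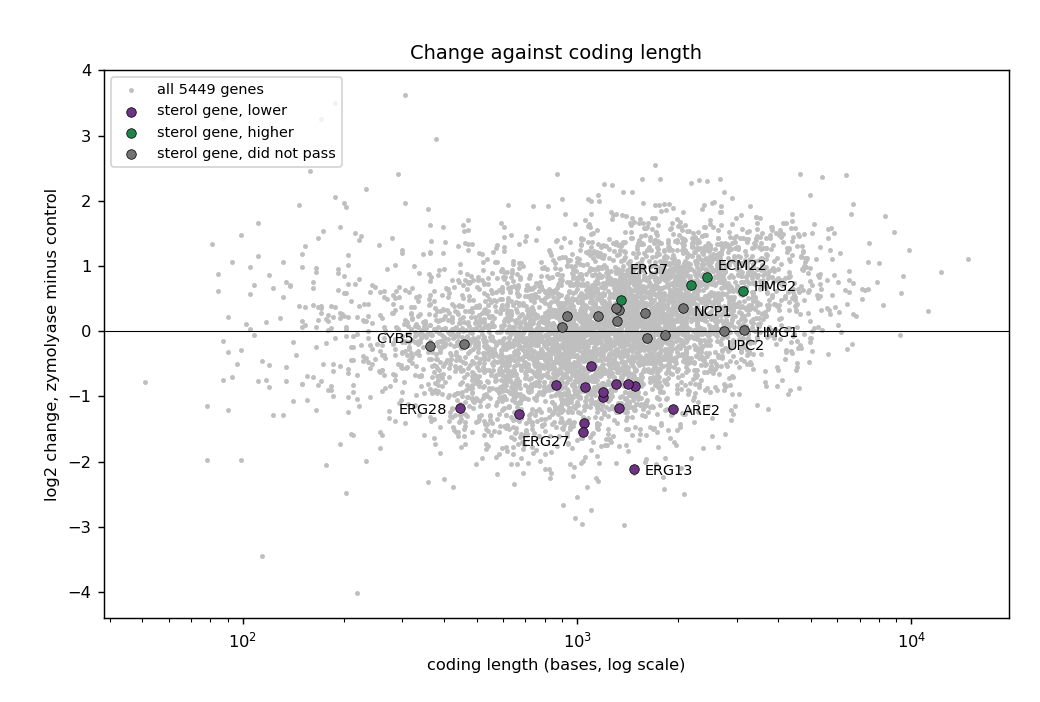
Log2 change (zymolyase minus control) against coding length on a log scale for 5449 genes in grey and the 33 sterol genes in colour. The sterol genes that fell lie below the grey cloud's middle at their own lengths, among them ERG13 at -2.12 and ARE2 at -1.20, while the 4 that rose are 1356 to 3138 bases long.

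Other genes of sterol handling and neighbouring pathways, from 9 lists that hold none of the 33, passed the test in shares near those of all genes when pooled. Of 62 measured, 13 rose and 12 fell, or 21.0% and 19.4%, beside 22.5% and 20.0% of all genes, with a median change of 0.00. The counts were 10 higher and 18 lower under median centring, beside 951 and 1463 of all genes. They were 9 and 12 with the length trend removed, beside 18.0% and 19.9% of all genes. Without both arrays numbered 1 they were 15 and 17, beside 1779 and 1543 of all genes. Without zymolyase array 3 the number that rose was 6, beside 851 of all genes. Among 13 genes of sterol transport, which have a median coding length of 3513 bases, 5 rose and 1 fell, and with the length trend removed 2 were higher and 4 lower. LAM4, LAM6 and ARV1 passed either way. LAM4, which moves sterol at contacts of the endoplasmic reticulum with the plasma membrane, had signals of 903.0, 1580.0 and 1471.8 in zymolyase and 305.7, 499.9 and 536.6 in control arrays and rose 2.95-fold (1.56, SE 0.29). LAM6, of mitochondrial and vacuolar contacts, rose 2.60-fold (1.38, SE 0.20). ARV1, which is needed for sterol distribution, fell 1.76-fold (-0.82, SE 0.17).

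Of the 5 remaining oxysterol-binding homologues, 3 rose, beside 22.5% of all genes. None fell (also none at an unadjusted p under 0.05), beside 20.0% of all genes. SWH1 had 602.7, 1524.0 and 1346.5 in zymolyase and 305.4, 379.3 and 460.4 in control arrays and rose 2.85-fold (1.51, SE 0.35). OSH2 rose 1.96-fold and OSH3 1.57-fold. These 3 are long genes, of 2991 to 3852 bases, and with the length trend removed none of them passed (changes of 0.95, 0.37 and 0.16, adjusted p of 0.0666, 0.268 and 0.432). Without zymolyase array 3 OSH2 had an adjusted p of 0.0551 and OSH3 of 0.0558, and without zymolyase array 2 OSH2 had 0.0532. Over the alternatives the adjusted p reached down to 1.93e-08 for SWH1, 1.56e-05 for OSH2 and 0.00511 for OSH3. Each of these lowest values came from the fit without both arrays numbered 1, added after seeing the data.

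Genes of the degradation of HMG-CoA reductase and its control changed in both directions. Of 7 genes, 3 fell and 1 rose, beside 20.0% and 22.5% of all genes. With the length trend removed 2 fell and 1 rose, beside 19.9% and 18.0% of all genes. UBC7, the ubiquitin-conjugating enzyme of that process, had 653.6, 404.1 and 554.6 in zymolyase and 2097.6, 2203 and 2210.5 in control arrays and fell 4.12-fold (-2.04, SE 0.19). CUE1, which anchors Ubc7 to the membrane, fell 1.77-fold (-0.82, SE 0.18). HRD3, of the ubiquitin ligase, had 700.1, 692.0 and 731.5 in zymolyase and 316.7, 309.9 and 327.3 in control arrays and rose 2.23-fold (1.15, SE 0.13). These 3 genes kept their calls under all 16 alternatives. The remaining fall was that of NSG1 (-0.64, SE 0.15, limma adjusted p = 0.0121, and 0.0523 with the length trend removed). NSG1 and NSG2, which did not pass, are in the list but are not part of the degrading machinery itself.

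Of 5 other transcription factors tied to sterol genes, 2 rose and 1 fell, beside 22.5% and 20.0% of all genes. MOT3, a repressor of ERG genes, rose 1.93-fold (0.95, SE 0.19), with 353.2, 329.4 and 336.4 in zymolyase and 222.8, 151.6 and 162.1 in control arrays. ROX1, the heme-dependent repressor of hypoxic genes, rose 1.82-fold (0.86, SE 0.23). Its adjusted p was 0.063 and 0.0672 without zymolyase arrays 2 and 3 and 0.0736 without control array 2. The lowest value over the alternatives, 2.28e-05, came without both arrays numbered 1. HAP1, the heme-responsive activator, fell 1.52-fold (-0.60, SE 0.14), with 835.6, 740.3 and 818.9 in zymolyase and 1171.9, 1155.5 and 1306.2 in control arrays. It has 4509 coding bases, and with the length trend removed it changed by -1.27.

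The remaining lists are to be read beside the 20.0% of all genes that fell and the 22.5% that rose. In heme synthesis 1 of 8 genes fell and none rose (also none at an unadjusted p under 0.05): HEM15, the ferrochelatase that inserts iron, had 1206.1, 718.7 and 772.7 in zymolyase and 2153.1, 2160.8 and 2282 in control arrays and fell 2.51-fold (-1.33, SE 0.21). Among 6 anaerobic wall genes that Upc2 is known to control, TIR2 fell 2.59-fold (-1.37, SE 0.31) and the other 5 did not pass. DAN1, singled out after its values were seen, changed by -1.32, with an adjusted p of 0.0589, and 0.00477 in the paired fit with the replicate block. ATF2, which acetylates sterols for export, fell 2.12-fold (-1.08, SE 0.20) and was the 1 of 5 genes of ester hydrolysis and acetylation to pass.

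In the other isoprenoid branches 2 of 10 genes fell and 1 rose, beside 20.0% and 22.5% of all genes. With the length trend removed 1 was lower and 3 were higher, beside 19.9% and 18.0% of all genes. BTS1, the geranylgeranyl pyrophosphate synthase, had 78.4, 77.4 and 97.6 in zymolyase and 195.3, 157.9 and 199.4 in control arrays and fell 2.18-fold (-1.13, SE 0.20). The subunits of farnesyltransferase had opposite signs, RAM1 at 0.65 (SE 0.21, adjusted p = 0.0368) and RAM2 at -0.56 (SE 0.17, adjusted p = 0.0309). Each call was lost under 6 of 16 alternatives. For RAM1 the adjusted p was 0.0637 and 0.0832 without zymolyase arrays 1 and 3, and 0.0993 and 0.111 without control arrays 2 and 3, in a span of 0.00733 to 0.111. For RAM2 it was 0.086 with the length trend removed, 0.103 and 0.0972 without zymolyase arrays 2 and 3, and 0.0502, 0.0904 and 0.0734 without control arrays 1, 2 and 3, in a span of 0.000835 to 0.103. The lowest value of each span came without both arrays numbered 1. Of 3 accessory genes, ERG29, which acts with the methyl oxidase Erg25, rose 1.59-fold (0.67, SE 0.15), MCR1, a reductase that can support sterol synthesis, fell 1.95-fold (-0.96, SE 0.22), and CBR1, the reductase of cytochrome b5, fell 1.47-fold (-0.55, SE 0.15). The adjusted p of CBR1 was 0.128 with the length trend removed, 0.0736 and 0.0616 without zymolyase arrays 2 and 3, and 0.0847 and 0.0749 without control arrays 2 and 3. Its lowest value over the alternatives, 0.000591, came without both arrays numbered 1.

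**Figure D5:**
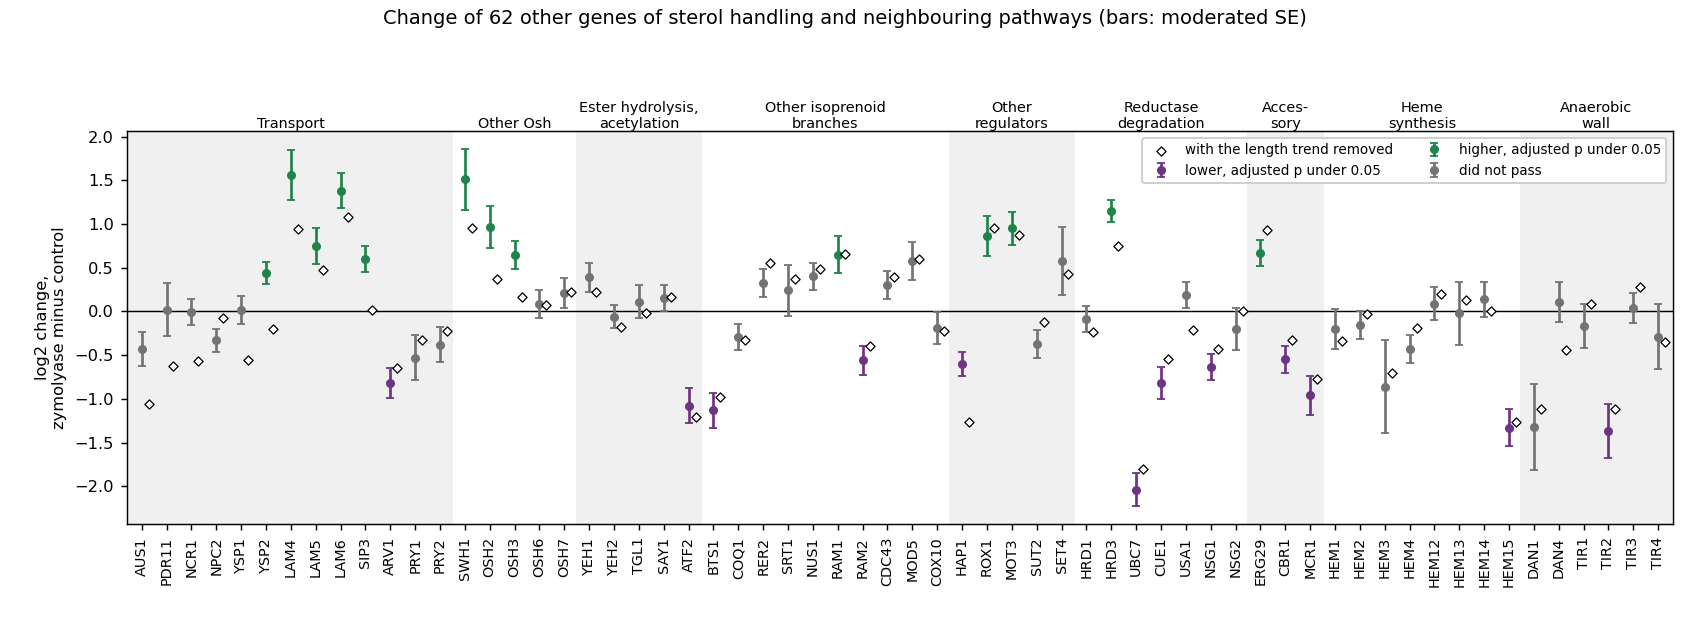
Log2 change (zymolyase minus control) with moderated SE of 62 genes of sterol transport, storage, regulation and neighbouring pathways, and the change after removal of the length trend as open diamonds. Of the 62, 13 rose (green) and 12 fell (purple), and UBC7 at -2.04 and LAM4 at 1.56 lie at the ends.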

How the data were processed

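The authors deposited 1 MAS5 signal per probe set and array, an intensity that is not log-transformed; the submitters' processing notes name MAS5, and the version, the settings and detection calls are not given in the sources used here. RNA of about 4 µg per sample was labelled, per the labels' protocols. On each of the 6 arrays the mean after trimming 2% at each end was 500.2 or 500.3, so arrays were scaled to a common mean. The number of arrays limits the precision.

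Probe sets (10928) were named from the platform annotation through gene identifiers of the RefSeq table for R64, and 5498 matched 1 yeast gene. Where a gene had more than 1 probe set (47 genes), the brightest was used. Log2 signals (zeros set to 0.1) were fitted over 5449 genes with limma 3.58.1 in R 4.3.3 (eBayes with intensity trend, Benjamini-Hochberg), checked on simulated data. Log2 change is zymolyase minus control. SE is the moderated standard error of the fit, and for gene pairs that of a difference of means. The length trend was removed by loess (span 0.5) on log2 coding length. Promoter and protein sequences were not used here.

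The sterol genes, the other lists and the rule for naming (all 33 sterol genes, and from each other list up to 3 of the largest changes past the threshold with separate groups) were chosen with earlier results of these data known. Same-numbered arrays deviated together from their group means (correlations of 0.49, 0.20 and 0.41). On that evidence the numbers were taken as pairs in the replicate block and in the paired form of the gene-pair comparison. The main fit, its SE and its adjusted p did not use the pairs. Alternatives were median centring, quantile normalization, a pseudocount of 32, leaving out the dimmest 25% of genes, all probe sets, mean of probe sets, no intensity trend, the replicate block, the length trend and each array left out; leaving out both arrays numbered 1, and the paired form of the gene-pair comparison, were added after seeing the data.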

Additional observations from a re-analysis of the deposited data

How the results depend on the processing

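Of the 19 sterol genes past the threshold, 12 kept direction and call under all 16 alternatives, and none of the 19 changed sign. Some alternatives could not change a sign. All probe sets, the mean of probe sets, leaving out dim genes, no intensity trend and the replicate block left the log2 changes as they were. These could alter only the p-values. The number that fell stayed within 12 to 15, while over all genes it ran from 740 without zymolyase array 2 to 1543 without both arrays numbered 1. The number that rose was 8 after quantile normalization and 1 with the length trend removed, beside 1156 and 982 of all genes. With single arrays left out it was 2 to 4, beside 851 to 1350 of all genes. The cause was not tested. With the replicate block 15 fell and 6 rose, beside 27.3% and 31.2% of all genes. The block changed no call of the sterol genes other than those of ERG25 and NCP1. Of the 62 genes of the other lists, 15 then rose and 16 fell, beside 31.2% and 27.3% of all genes. AUS1, PRY2, HEM4 and DAN1 were added as lower and NUS1 and SET4 as higher. The median change was -0.36 under median centring, by construction of the shift of -0.16, and -0.42 with the length trend removed, and -0.33 to -0.11 with single arrays left out. The number of those 62 genes that rose was 6 to 14 with single arrays left out, beside 851 to 1350 of all genes. Quantile normalization moved the median gene by -0.03, and after it ERG11, ERG25, ERG6 and NCP1 passed as higher.

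Genes with changes near 0 turned sign. HMG1 changed by -0.14 under median centring, -0.13 after quantile normalization, -0.50 with the length trend removed, -0.03 and -0.04 without control arrays 2 and 3, -0.25 without zymolyase array 1 and -0.14 without both arrays numbered 1. UPC2 changed by -0.15, -0.11 and -0.44 under the first 3 of these, and by -0.37, -0.18 and -0.27 without control array 1, zymolyase array 2 and zymolyase array 3, with a highest value of 0.46 without zymolyase array 1. SUT1 changed by -0.09 under median centring, DAP1 by 0.03 with the length trend removed, and ARE1 by -0.21 to 0.14 with single arrays left out (0.14 without control array 1) and by 0.18 without both arrays numbered 1. None of these passed. The 3 arrays per group limit what can be told apart for UPC2 and HES1, whose standard errors were 0.47 and 0.35.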

Other observations

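Some sterol genes differed between array numbers in both groups, a pattern chosen after the values were seen and given without a test. For UPC2, HES1 and HMG1 these differences were larger in size than the change between zymolyase and control (0.01, 0.36 and 0.02). The log2 signal of UPC2 on the array numbered 1 was below the mean of the arrays numbered 2 and 3 by -1.37 in the zymolyase group and by -1.14 in the control group. For HES1 the same differences were -1.06 and -0.63. In the opposite direction, HMG1 stood higher on the arrays numbered 1, by 0.79 and 0.33, in zymolyase and control. ERG13 was also higher there, by 1.41 and 0.42, less than its change of -2.12 between the groups. The array numbered 1 was the lowest of its group in both groups for 6 of the 33 sterol genes, or 18.2%, and the highest for 7, or 21.2%, against 23.1% and 27.8% of all genes. Among the 15 sterol genes that fell, zymolyase array 1 had the highest of the 3 zymolyase values for 11, or 73.3%, against 61.8% of all genes that fell.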
